A study of Rattus norvegicus with 18 samples.

Results

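Cardiac gene expression after any gestational cannabidiol exposure was compared with that after vehicle, with both doses pooled into 1 exposed group. The count table has 18 columns, all of which entered the comparison: the 11 whose names start with C3 or C30 were taken as exposed and the 7 whose names start with V as vehicle. All hearts came from male Wistar rats at 3 weeks of age. The exposed hearts came from offspring exposed in gestation to 3 mg/kg/day (CBD3, n = 6) or 30 mg/kg/day (CBD30, n = 5), and the vehicle hearts from offspring of the control group (n = 7). The offspring themselves differ only in this gestational exposure, as far as the labels state. The sources used here do not give the route or days of dosing, or which offspring shared a litter. The p-values therefore treat each heart as independent, and any likeness between littermates would make them too small.

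Cannabidiol is a non-intoxicating constituent of cannabis that reaches the fetus through the placenta. It binds the classical cannabinoid receptors weakly and acts on other proteins, among them transient receptor potential channels, a serotonin receptor and the nuclear receptor PPAR-gamma. In the weeks after birth the rat heart moves from growth by cell division to growth by cell enlargement, and from glucose to fatty acids as its main fuel. A whole heart holds cardiomyocytes, endothelial cells, fibroblasts, smooth muscle and blood cells, so in these bulk samples fewer cells of a type and less RNA per cell cannot be told apart. The table names its genes by Ensembl ID, and none of its 30560 IDs could be paired with a symbol from the reference used here. Genes are therefore given by ID for 2 in each direction, what they encode is not given, and the heart's defining markers were not checked. For the same reason no sequence could be assigned to them.

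Libraries held 44321480 to 80451013 counts in vehicle hearts and 44127009 to 89240727 in exposed hearts. The number of genes with at least 1 count was 20022 ± 308 in vehicle hearts (SD, n = 7) and 20078 ± 267 in exposed hearts (SD, n = 11). Each sample has a code such as 3.1. Its last digit is 1 in 4 vehicle and 5 exposed hearts and 2 in 3 vehicle and 6 exposed hearts, and no label explains it. Libraries with digit 1 were larger, at 63672078 to 89240727 counts, than those with digit 2, at 44127009 to 67302419. After scaling, and beside exposure, the digit went with almost no difference in expression (1 of 17009 genes at an unadjusted p under 0.05, 0.00588%), where the nominal 5% is 850. The sources used here do not say whether the counts were adjusted for the digit. The p-values, also those with the digit as a covariate, make no allowance for such an adjustment. Results are given over all hearts and within each digit.

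Of 17009 genes tested, 1 differed between exposed and vehicle hearts at an adjusted p under 0.05 (0.00588%). ENSRNOG00000018214 rose in the exposed hearts. It had 12.2 CPM in the lowest vehicle heart, a median of 15.8 and 17.5 in the highest (CPM, the count scaled by the TMM-adjusted library size). In the CBD3 hearts the lowest, median and highest values were 19, 23.5 and 27 CPM. The 5 CBD30 hearts had 19.2, 23.2, 23.5, 24.1 and 24.6 CPM. All 11 exposed hearts thus lay above the highest vehicle heart, with a gap of 17.5 to 19 CPM between the groups. The means were 23.1 ± 2.64 CPM in exposed (SD, n = 11) and 15.4 ± 1.81 CPM in vehicle hearts (SD, n = 7), a 1.5-fold difference. Its log2 fold change was 0.58 ± 0.0871 (SE; 95% interval 0.40 to 0.76), with an edgeR adjusted p of 0.027. These values rest on 540 to 1341 counts per vehicle library and 1061 to 2201 per exposed library.

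The size of this difference changed little with the samples used, while the call at 0.05 did change. With each of the 18 hearts left out in turn, the log2 fold change of ENSRNOG00000018214 ranged from 0.53 to 0.61, and its edgeR adjusted p from 0.0132 to 0.106. The call was lost in 13 of these 18 fits and was present without vehicle hearts 2.1 or 3.1, CBD3 hearts 1.2 or 2.2, or the CBD30 heart coded 2.1. It was also lost with library size as the only scaling (log2 fold change 0.54, adjusted p = 0.161), with the doses as separate groups (adjusted p = 0.0537) and with the code digit as a covariate (adjusted p = 0.0556). In the digit 1 hearts it was at 15.5 ± 2.28 CPM in vehicle (SD, n = 4) and 23.3 ± 2.70 CPM in exposed (SD, n = 5), and in the digit 2 hearts at 15.4 ± 1.44 (n = 3) and 22.9 ± 2.83 CPM (n = 6). The log2 fold changes were 0.60 ± 0.131 and 0.57 ± 0.131 (SE). Their difference was -0.02, with a 95% interval of -0.40 to 0.36.

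ENSRNOG00000039571 was the other ID given on the higher side. Vehicle hearts had 2.92, 3.26 and 3.57 CPM as lowest, median and highest values. CBD3 hearts had 3.71, 5.27 and 6.16 CPM by the same measures, and the CBD30 hearts 3.96, 5.68, 6.10, 7.98 and 7.98 CPM. The 11 exposed hearts again all lay above the vehicle hearts, but by a narrow gap, from 3.57 to 3.71 CPM. The exposed hearts also spread more widely, with 5.63 ± 1.44 CPM (SD, n = 11) against 3.28 ± 0.225 CPM (SD, n = 7). The log2 fold change was 0.78 ± 0.145 (SE) and did not pass the threshold (edgeR adjusted p = 0.0941, 0.0313 to 0.302 with each heart left out). Within the digits it was 0.77 ± 0.209 and 0.80 ± 0.217 (log2 fold change, SE).

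On the lower side the IDs given were ENSRNOG00000042686 and ENSRNOG00000035583, and neither passed the threshold. ENSRNOG00000042686 had 7.04, 10.1 and 13.3 CPM in vehicle hearts (lowest, median, highest), 5.82, 6.81 and 7.76 CPM in CBD3 hearts, and 5.87, 6.18, 7.22, 7.41 and 7.58 CPM in the 5 CBD30 hearts. All 11 exposed hearts were below the vehicle median and 7 were below the lowest vehicle heart. Only the vehicle heart coded 3.1, at 7.04 CPM, lay within the exposed range. Its log2 fold change was -0.57 ± 0.104 (SE; edgeR adjusted p = 0.0941, 0.0228 to 0.302 with each heart left out).

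ENSRNOG00000035583 was a rarer transcript, with 73 to 210 counts per vehicle library and 20 to 78 per exposed library. Vehicle hearts had 1.21, 1.83 and 2.71 CPM (lowest, median, highest). CBD3 hearts had 0.515, 0.843 and 1.22 CPM, and the CBD30 hearts 0.356, 0.666, 0.747, 0.918 and 1.26 CPM. All 11 exposed hearts were below the vehicle median and 9 were below the lowest vehicle heart, the one coded 4.1. The means were 0.825 ± 0.297 CPM in exposed and 1.80 ± 0.473 CPM in vehicle hearts (SD, n = 11 and 7), so the level in vehicle hearts was 2.18 times that in exposed hearts by the fit. Its log2 fold change of -1.13 ± 0.218 (SE) had an edgeR adjusted p of 0.127 (0.0313 to 0.302 with each heart left out). These 4 IDs were picked for small p-values, so how well their groups separate is a description.

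**Figure D1:**
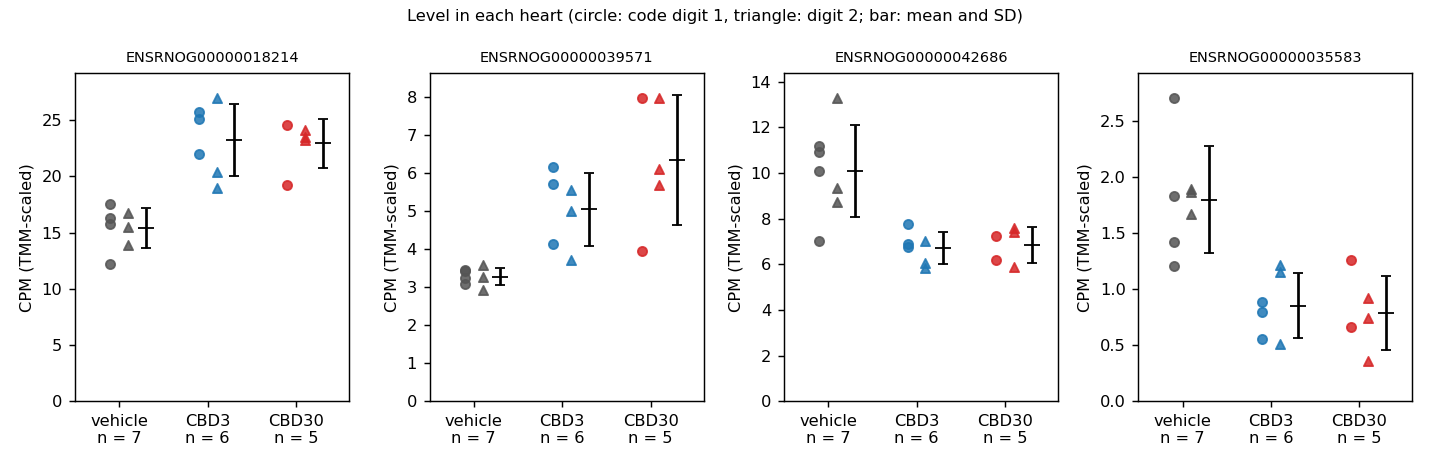
Level of the 4 IDs in each heart, in TMM-scaled CPM from 0, for vehicle (grey, n = 7), CBD3 (blue, n = 6) and CBD30 (red, n = 5); circles are hearts with code digit 1, triangles digit 2, and bars the mean and SD of each group. For ENSRNOG00000018214 and ENSRNOG00000039571 all 11 exposed hearts lie above the 7 vehicle hearts, and for the other two IDs 1 vehicle heart lies within the exposed range.

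Both doses entered the exposed group, so the difference of each from the same 7 vehicle hearts was set side by side. For ENSRNOG00000018214 the log2 fold change was 0.59 ± 0.101 at CBD3 and 0.57 ± 0.106 at CBD30 (SE). CBD30 differed from CBD3 by -0.02, with a 95% interval of -0.25 to 0.21. ENSRNOG00000042686 had -0.59 ± 0.125 at CBD3 and -0.56 ± 0.133 at CBD30 (log2 fold change, SE), with a dose difference of 0.03 (95% interval -0.25 to 0.31). ENSRNOG00000039571 had 0.62 ± 0.152 at CBD3 and 0.95 ± 0.158 at CBD30 (log2 fold change, SE), a dose difference of 0.33 whose 95% interval of -0.02 to 0.67 included 0. For ENSRNOG00000035583 the values were -1.08 ± 0.265 and -1.19 ± 0.285 (log2 fold change, SE), and the interval of the dose difference, -0.72 to 0.50, was wide. A dose difference was not detected for any of the 4 (edgeR adjusted p = 0.999 for each). The 4 were picked on the pooled doses, which favours genes with like values at both, so this is a description. For ENSRNOG00000018214 and ENSRNOG00000042686 the intervals leave room for a dose difference of at most 0.31 on the log2 scale in either direction.

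Over all genes, pooling the doses gave 3238 genes at an unadjusted p under 0.05 (19% of 17009, against the nominal 850). Of these 1665 were higher (9.79%) and 1573 lower (9.25%) in exposed hearts. For CBD3 alone against vehicle the count was 1518 (8.92%), with 662 higher (3.89%) and 856 lower (5.03%). For CBD30 alone it was 2794 (16.4%), with 1550 higher (9.11%) and 1244 lower (7.31%). Both doses were compared with the same vehicle hearts. Between CBD30 and CBD3 294 genes reached this level (1.73%), 125 higher (0.735%) and 169 lower (0.994%) at CBD30, fewer than the nominal 850. Deviations shared by the genes of a heart can move such counts far to either side of the nominal 850. These unadjusted counts are therefore a description, and do not measure how many genes differ with exposure. At an adjusted p under 0.1 there were 5 genes for the pooled doses (0.0294%). DESeq2 called more genes than edgeR at an adjusted p under 0.05. It called 183 of 17277 genes with an adjusted p (1.06%), 70 higher and 113 lower in exposed hearts, and 191 of 16349 (1.17%) when given only the genes tested with edgeR, while limma voom called 1 of 17009 (0.00588%). In the DESeq2 fit of all genes all 4 IDs passed, with adjusted p of 2.35e-06 for ENSRNOG00000018214, 0.000721 for ENSRNOG00000039571 and for ENSRNOG00000042686, and 0.00155 for ENSRNOG00000035583. In limma voom only ENSRNOG00000018214 passed (adjusted p = 0.0314), and the other IDs were at 0.0899 to 0.137.

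Few genes separated the hearts completely. In 3 genes every exposed heart was above every vehicle heart (0.0176%) and in 2 every exposed heart was below (0.0118%). ENSRNOG00000018214 and ENSRNOG00000039571 are 2 of the 3. The other higher gene, singled out after its values were seen, had 2.92 to 3.86 CPM in vehicle and 3.99 to 4.87 CPM in exposed hearts. The 2 lower genes were rare, at 0.588 to 1.24 against 0.362 to 0.557 CPM, and at 0.159 to 0.354 against 0.0127 to 0.157 CPM (vehicle against exposed). No gene was counted throughout one group and absent from the other: 0 of 30560 had counts in all 11 exposed hearts and in no vehicle heart, and 0 the reverse.

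**Figure D2:**
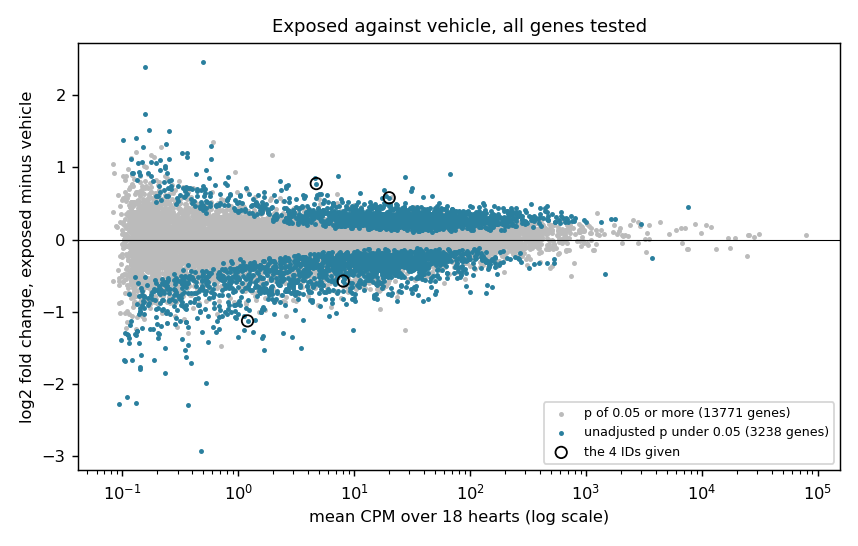
Log2 fold change of exposed against vehicle hearts for the 17009 genes tested, against mean CPM on a log scale; blue points are the 3238 genes at an unadjusted p under 0.05 and circles the 4 IDs described. Among genes over 1 CPM, points beyond 1.5-fold lie mostly on the lower side.

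Differences were small for most genes. For the 13527 genes whose mean reached 1 CPM, the median absolute log2 fold change was 0.142 and the median standard error 0.114. An unadjusted edgeR p under 0.05 was reached by 2817 of them (20.8%). Of all 13527 genes, 22 had a fitted difference over 2-fold, 1 higher and 21 lower in exposed hearts. For 79.3% of the 13527 the whole 95% interval was inside 1.5-fold in either direction, and for 95.7% inside 2-fold. The 10 most abundant genes, at 13200 to 78900 CPM, had log2 fold changes of -0.23 to 0.08, none past the threshold (lowest edgeR adjusted p = 0.305).

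The direction of the differences went with abundance. CPM rises with transcript length as well as with the number of transcripts, so the bins are of counts. Of the 1239 genes with at least 100 CPM, 226 were higher (18.2%) and 63 lower (5.08%) in exposed hearts at an unadjusted p under 0.05. Between 10 and 100 CPM, 997 of 7244 genes were higher (13.8%) and 657 lower (9.07%). Between 1 and 10 CPM the order was the reverse, with 328 of 5044 higher (6.5%) and 546 lower (10.8%). Differences over 1.5-fold were more often on the lower side. Among genes of at least 1 CPM with a difference over 1.5-fold and an unadjusted p under 0.05, 31 genes were higher (0.229%) and 188 lower (1.39%). With library size as the only scaling the counts at 100 CPM or more were 248 higher and 83 lower, and between 1 and 10 CPM 222 higher and 616 lower, so both directions were the same under these scalings. Between 10 and 100 CPM higher genes outnumbered lower ones under each scaling, but not within either digit (1191 higher and 1504 lower in digit 1, 150 and 211 in digit 2).

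A few vehicle hearts took a large part in these counts. For 109 of the 188 lower genes (58%) the highest vehicle heart was the one coded 2.1, and for 42 (22.3%) the one coded 1.1. In the median gene of the 188, 7 of the 11 exposed hearts lay within the vehicle range. The same values over all genes tested were not computed, so these shares are a description of the 188 genes only. Without those 2 vehicle hearts and the CBD30 heart coded 2.1, the 3 hearts farthest out on the first principal component, 27 genes were higher and 47 lower beyond 1.5-fold. The genes at 100 CPM or more were then 32 higher and 30 lower, and those between 1 and 10 CPM 113 higher and 259 lower. The excess of higher genes among abundant ones was not present without these 3 hearts, while that of lower genes between 1 and 10 CPM was. The 3 were picked with the data already seen. On that component the vehicle hearts 2.1 and 1.1 had the lowest scores (-65.0 and -57.9) and the CBD30 heart the highest (65.5). Each lay far out on its own group's side, so leaving them out narrows the contrast by selection. The fall in these counts is therefore a description. Without the vehicle heart coded 3.1 there were 66 higher and 382 lower genes beyond 1.5-fold, and without the one coded 2.1 there were 18 higher and 96 lower. Without vehicle heart 1.1 the lower genes numbered 108 and without 1.2 they numbered 312. At 100 CPM or more, 121 genes were higher without vehicle heart 1.1, 134 without 2.1 and 344 without 3.1, and 135 were lower without 2.2.

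**Figure D3:**
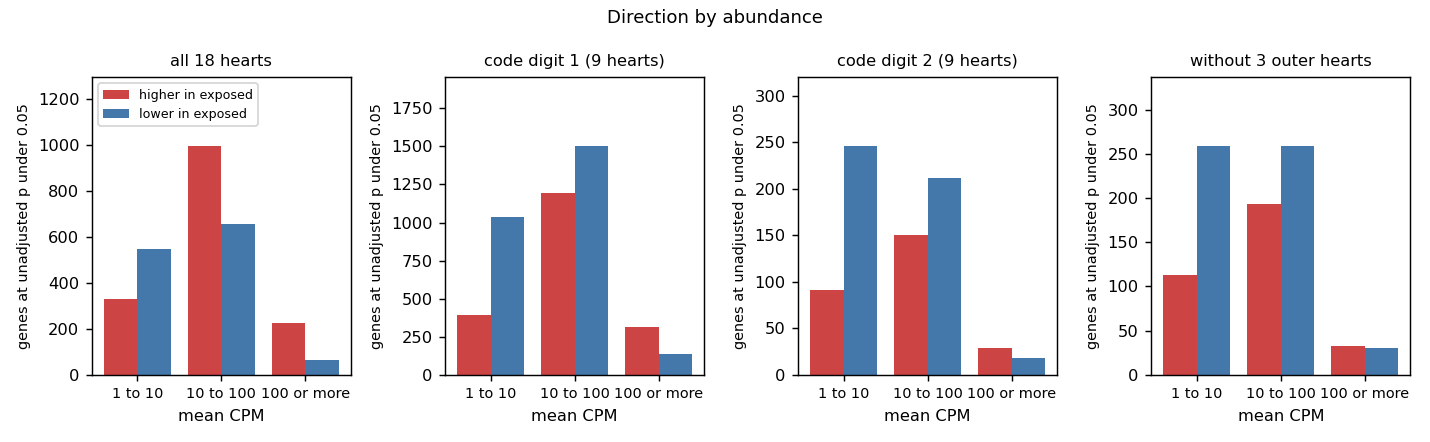
Genes at an unadjusted p under 0.05 that were higher (red) or lower (blue) in exposed hearts, by mean CPM, in all 18 hearts, in the 9 hearts of each code digit and without the 3 hearts farthest out on the first component; each panel has its own count axis. Lower genes outnumber higher ones between 1 and 10 CPM in every panel, and at 100 CPM or more the 226 higher and 63 lower genes of all hearts become 32 and 30 without the 3.

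The comparison was also made within each digit, in separate fits with unequal numbers of vehicle hearts. In the digit 1 hearts (5 exposed, 4 vehicle) 5126 of 17640 genes reached an unadjusted p under 0.05 (29.1%), of which 2051 were higher (11.6%) and 3075 lower (17.4%). In the digit 2 hearts (6 exposed, 3 vehicle) it was 942 of 16659 (5.65%), 337 higher (2.02%) and 605 lower (3.63%). No gene passed an adjusted p of 0.05 in either digit alone with edgeR. The difference between the digits was itself tested as an interaction: 3014 of 17009 genes had an unadjusted p under 0.05 (17.7%; 1573 with a more positive difference in digit 2, 9.25%, and 1441 with a more negative one, 8.47%) and 0 an adjusted p under 0.05 (0%; limma voom 0 adjusted, 2780 unadjusted). Without the 3 hearts farthest out on the first component the unadjusted interaction count was 527, under the nominal 850. All 3 of these hearts have digit 1, and without them its only vehicle hearts are those coded 3.1 and 4.1. They were picked for lying far out, so the lower count cannot show that the digits are alike. For the 4 IDs no difference between the digits was detected. The digit 1 and digit 2 log2 fold changes were -0.49 ± 0.144 and -0.66 ± 0.161 (SE) for ENSRNOG00000042686 and -1.10 ± 0.300 and -1.15 ± 0.336 for ENSRNOG00000035583. The 95% intervals of digit 2 minus digit 1 were -0.62 to 0.30 and -1.02 to 0.94, which include sizeable differences. The edgeR interaction p of the 4 was 0.479 to 0.933 unadjusted. They were chosen on all 18 hearts, so their like sign in both digits is not independent evidence.

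Among the edgeR fits that each left out 1 heart, the number of called genes moved most without the vehicle heart coded 3.1. Without it edgeR called 762 of 16964 genes (4.49%), 422 higher and 340 lower in exposed hearts, with a median absolute log2 fold change of 0.462. All 4 IDs were among them, with adjusted p of 0.0228 to 0.0313. Genes whose groups did not overlap then numbered 92 (0.542%), 48 higher and 44 lower. The interaction with the digit was called for 1488 genes (8.77%). Each of the other 17 hearts, left out in turn, gave 0 to 3 called genes. The unadjusted count fell most without vehicle hearts 1.1 (2067 genes) and 2.1 (2069 genes), and that of the interaction was 1989 and 1740 without these and 1699 without vehicle heart 1.2. The vehicle heart coded 3.1 was singled out because its absence raised the count of called genes. The 762 genes are therefore a description of what rests on 1 library.

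**Figure D4:**
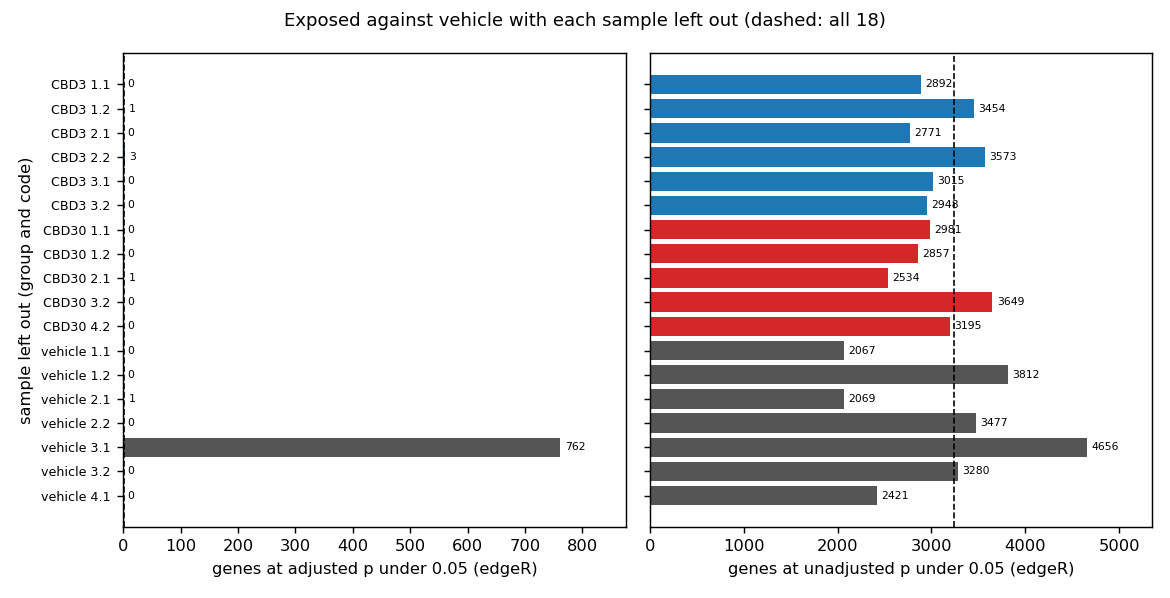
Number of genes at an adjusted (left) and unadjusted (right) edgeR p under 0.05 for exposed against vehicle hearts when the sample on the vertical axis is left out; bars are coloured by group and the dashed line is the count with all 18. Without the vehicle heart coded 3.1 the counts are 762 and 4656, against 1 and 3238 with all hearts.

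On the first principal component of log2 CPM (29.8% of the variance), exposed hearts had a mean score of 10.4 ± 22.9 (SD, n = 11) and vehicle hearts of -16.4 ± 36.1 (SD, n = 7). The score did not differ past the threshold (exact two-sided permutation p = 0.0714 over 31824 divisions, Benjamini-Hochberg adjusted 0.295 over 6 library measures). Vehicle hearts 2.1, 1.1 and 4.1 had the lowest scores, -65.0, -57.9 and -30.2, and the vehicle heart coded 3.1 was at 30.2, inside the exposed range of -15.9 to 65.5. In the digit 1 hearts exposed minus vehicle was 57.1, and in the digit 2 hearts it was -5.54. With exposure permuted within each digit, the difference between the digits had a two-sided p of 0.034 (10584 divisions, adjusted 0.102 over 6 measures). This permutation assumes no exposure difference in either digit, so it is not an exact test of equal differences. Components 2 and 3, the total counts, the genes detected and the share of the 10 most abundant genes did not pass it either (exact two-sided permutation p = 0.0982 to 0.782, adjusted 0.295 to 0.782). That share was 28.1% ± 2.93 in vehicle (SD, n = 7) and 27.8% ± 1.41 in exposed hearts (SD, n = 11). Within the digits it differed in opposite directions, from 26.96% in vehicle to 28.71% in exposed hearts in digit 1 and from 29.63% to 27.07% in digit 2. The difference between the digits had a p of 0.0317 by the permutation of exposure within each digit (two-sided, adjusted 0.102 over 6 measures). Here too this is not an exact test of equal differences.

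**Figure D5:**
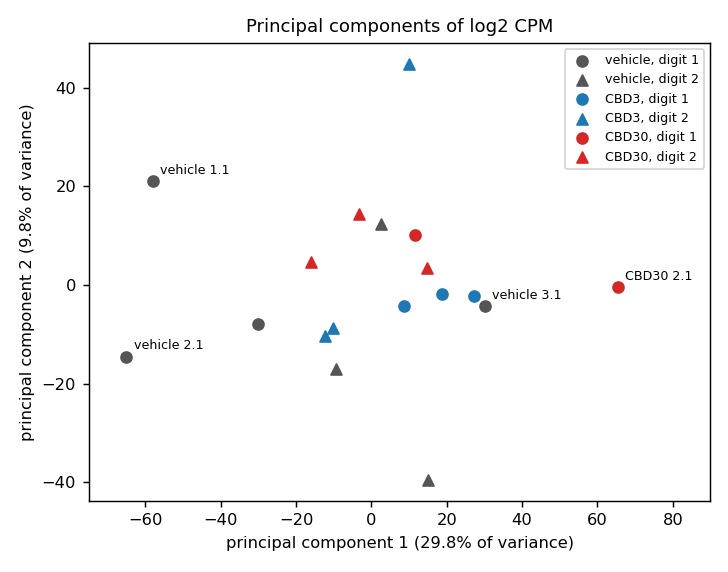
Scores of the 18 hearts on the first and second principal components of log2 CPM, with the group by colour and the code digit by shape. Vehicle hearts 1.1 and 2.1 lie at -57.9 and -65.0 on the first component and the CBD30 heart coded 2.1 at 65.5, while vehicle heart 3.1 lies at 30.2 among exposed hearts.

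Vehicle hearts varied more among themselves than exposed hearts did, although the exposed group holds 2 doses. The median over genes of the SD of log2 CPM was 0.305 in vehicle (n = 7) and 0.248 in exposed hearts (n = 11), with 0.222 in CBD3 (n = 6) and 0.268 in CBD30 (n = 5). The SD was larger in vehicle than in exposed hearts for 68.5% of the 17009 genes. In digit 1 the medians were 0.306 in vehicle (n = 4) and 0.221 in exposed hearts (n = 5). In digit 2 they were 0.254 (n = 3) and 0.250 (n = 6). The median of an SD tends to be lower in smaller groups, so the digit 2 values cannot show whether the gap is absent there. Over both digits the gap remained without the vehicle heart coded 3.1 (0.295 in the other 6). These medians are a description, and no test of the spread was made.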

How the data were processed

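The table the authors deposited holds unscaled read counts for each Ensembl gene ID in 18 heart samples. Per the submitters' processing notes, featureCounts and edgeR were used with build mRatBN7.2. Per the labels' protocols, the libraries were stranded and enriched for messenger RNA. The sources used here do not give the aligner, the annotation or how strand was counted. The 4 vehicle columns with digit 1 match 2 samples each and were used without a replicate number.

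Genes were kept by filterByExpr over the 3 labelled groups (minimum count 10, minimum total 15), scaled by TMM and tested in edgeR 4.0.16 (R 4.3.3) by quasi-likelihood F test, exposed against vehicle, with Benjamini-Hochberg adjustment over 17009 genes and a threshold of 0.05. Standard errors were derived from the F statistic. The fit of each digit filtered its own columns. Log2 CPM used a prior count of 2. All 46 pairs of libraries of one group differed by more than counting error (chi-square per degree of freedom at least 34.4), so none was merged. DESeq2 1.42.0 and limma 3.58.1 were alternatives. The edgeR fit of exposed against vehicle was tested on simulated counts, with genes drawn independently and no deviations shared by the genes of a heart. The exact permutation was tested on a case with a known answer. The other fits were not tested in this way.

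The rule for IDs was the 2 smallest unadjusted p in each direction at a mean of at least 1 CPM. The 28 pathway and 17 cell type lists prepared could not be applied, because the reference (GRCr8, 47357 genes) holds an Ensembl ID for 0 genes. The comparison and lists were chosen with earlier results of these data known.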

Additional observations from a re-analysis of the deposited data

Results flagged for a closer look

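Among 30 sets of 5 to 7 samples, 3 held a sample far from the others of its group, where chance gives about 1 in 20. ENSRNOG00000018214 was at 19.2 CPM in the CBD30 heart coded 2.1, with the nearest other CBD30 heart at 23.2 CPM. The CBD3 heart coded 3.2 had a score of 44.9 on the second principal component, with the nearest other at -1.72. The CBD30 heart coded 1.2 had a score of 35.9 on the third principal component, with the nearest other at -0.604.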

How the results depend on the processing

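The fits of the 14 numbered columns, without the 3 outer hearts, and of digit 1 without vehicle heart 3.1, and the counts by abundance, were added with the data already seen. For every change listed the cause was not tested. The number of called genes (adjusted p under 0.05) was 0 with library size only, with the 3 labelled groups, with the digit as covariate and in each digit alone, and 183 and 191 with DESeq2 on all genes and on the genes edgeR tested. It was 1, as with all samples in edgeR, in the other 8 fits of scaling, filter, tool or without the 3 outer hearts, and 6252 in digit 1 without vehicle heart 3.1 (35.6% of 17577, 3 vehicle hearts). Unadjusted counts were 5126 and 942 in digits 1 and 2, 8124 in digit 1 without that heart and 1137 without the 3 outer hearts. Non-overlapping genes numbered 10 with library size only, 3 at a mean of at least 1 CPM and 20 without the 3 outer hearts. Interaction counts without the 3 were 527 unadjusted.

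The same replicate number did not mark similar deviations. The 3 same-numbered pairs of a vehicle and an exposed heart correlated at -0.196 to -0.0346 across genes, and neither of the 2 vehicle hearts that share a number with an exposed heart (replicates 5 and 6) correlated best with its own number. The replicate block could be fitted only in the 14 numbered columns and rests on those 2 vehicle hearts. It gave 0 called genes and 2221 unadjusted, against 0 and 1089 in those columns without it. With the block, higher genes outnumbered lower ones between 1 and 10 CPM (350 and 324) and beyond 1.5-fold (473 and 322), where the same 14 columns without it had 120 higher and 192 lower, and 42 higher and 82 lower.

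Leaving out each heart gave 0 to 762 called genes, 2067 to 4656 unadjusted, 5 to 92 non-overlapping, and 0 to 1488 (adjusted) and 1699 to 5455 (unadjusted) with an interaction. The ratio of median SDs, vehicle over exposed (1.23), ranged from 1.17 to 1.34. Exposed minus vehicle ranged from 5005877 to 11027466 for total counts, -2.18 to 115 for genes detected, -0.827 to 0.474 for the percentage in the 10 most abundant genes, and 18.4 to 34.8, -4.12 to 17.9 and 7.42 to 15.6 for components 1 to 3. The third had an adjusted exact permutation p of 0.0339 without CBD3 heart 3.2. The signs of the 4 IDs held in all 36 alternatives. Their precision is limited most for ENSRNOG00000035583, at 20 counts in its lowest library.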
